A study of Homo sapiens with 8 samples.

Results

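The genes described here are 35 of those in a stretch of the long arm of human chromosome 12, from IKZF4 to LRP1 (GRCh38, chr12:56007659-57213361). They were picked because they form the lowest gene window of the HPV- cisplatin resistant clone against its parental cells, so every value of that contrast chose the members and is given as a description without a test. Of the 35 members, 33 had enough counts to be tested, out of 15221 genes tested and 35113 genes with a matched transcript. SLC39A5, a zinc transporter, and MYO1A, an intestinal brush border myosin, were at or under 0.62 CPM (counts scaled to a library total set equal for all libraries) in every library and were not tested.

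RNA was sequenced from 4 groups of squamous carcinoma cells of the head and neck, with 2 libraries each. HPV- resistant cells (SCC411) are a single-cell clone selected by long-term cisplatin treatment of the UPCISCC89 line, and HPV- parental cells (SCC89) are that line itself. HPV+ resistant cells (SCC35) are a single-cell clone selected by the same procedure from the UDSCC2 line, and HPV+ parental cells (SCC2) are that line. The cisplatin doses were higher for the HPV+ line, so the treatment of the 2 clones was not alike. Each resistant group is thus 1 clone set against a population, and selection by cisplatin and descent from a single cell cannot be told apart. Whether the paired libraries were grown as independent cultures is not stated in any source, and a p-value here therefore reflects how far these libraries spread, which may be technical.

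Totals ran from 20250246 to 27341284 estimated counts per library, and log2 CPM correlated at 0.975 to 0.988 (Pearson, across genes) between the 2 libraries of a group. Squamous markers were present in all 8 libraries. They summed to 3175.1 and 4143.5 CPM in HPV- resistant cells, 13138 and 13112 CPM in HPV- parental cells and 2814 to 4145 CPM in the HPV+ libraries. KRT14 was at 221 and 282 CPM in HPV- resistant cells, against 6547 and 5121 CPM in HPV- parental cells. KRT5, TP63 and DSG3 were lower there too, EPCAM overlapped, and CDH1 was higher (174 and 221 CPM, against 87.8 and 108 CPM). Of the fibroblast markers, COL3A1 was at 1358 to 3079 CPM in the 4 HPV+ libraries and at 0 in the 4 HPV- libraries. DCN was also present in all 4 HPV+ libraries, at up to 119 CPM, and at 0 in the 4 HPV- libraries. The other fibroblast markers did not share this pattern. COL1A1 was at 3.65 to 8.36 CPM across all 8 libraries, and PDGFRB was at or under 0.302 CPM in each. COL1A2 was at 0 to 1.27 CPM in the HPV+ libraries and at 0.427 to 4.44 CPM in the HPV- libraries. Leukocyte markers summed to 0.0755 to 19.6 CPM. The part of these markers in the results was not tested.

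The block holds genes with unrelated duties that happen to lie side by side. RPS26 and RPL41 are ribosomal proteins, ATP5F1B and CS serve mitochondrial energy metabolism, TIMELESS and PRIM1 act at the replication fork, and STAT2 and STAT6 carry cytokine signals to the nucleus. Neighbouring genes of this kind do not all share a promoter, so they need not be transcribed together. Some start close to each other on opposite strands. RNF41 starts at 56221933 on the minus strand and NABP2 at 56222015 on the plus strand, and PAN2 and IL23A are placed in the same way.

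To show what the members have in front of them, the windows from 250 bases before to 50 bases after the start were read from RefSeq (GRCh38.p14), where 32 of the 35 members matched. ERBB3, ATP5F1B and SMARCC2 were not matched. Of 4 motifs, which do not contain one another, searched on both strands, GGGCGG (GC box) was in 23 of the 32 member windows (71.9%) and in 44.6% of all 27305 windows. CCAAT was in 14 (43.8%, against 35.7% of all windows), CCGGAAG (ETS core) in 3 (9.38%, against 10.7%) and TATAAA in 2 (6.25%, against 11.95%). The full set of windows also holds genes that were not tested here, so it is unlike the members, and nothing is read from these shares. The windows below belong to the 2 members with the lowest values in the HPV- clone, RPS26 (chr12:56041668-56041967) and PA2G4 (chr12:56104309-56104608), and to 2 members near the far end with values of opposite sign, NAB2 (chr12:57088864-57089163) and LRP1 (chr12:57128233-57128532). All 4 lie on the plus strand, and capitals mark matches to any of the 4 motifs.
RPS26: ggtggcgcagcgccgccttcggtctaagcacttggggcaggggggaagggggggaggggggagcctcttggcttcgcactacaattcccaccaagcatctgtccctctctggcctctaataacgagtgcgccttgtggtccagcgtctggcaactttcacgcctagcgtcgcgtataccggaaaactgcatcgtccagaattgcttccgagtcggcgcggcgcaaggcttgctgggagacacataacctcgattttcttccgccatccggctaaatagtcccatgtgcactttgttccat
PA2G4: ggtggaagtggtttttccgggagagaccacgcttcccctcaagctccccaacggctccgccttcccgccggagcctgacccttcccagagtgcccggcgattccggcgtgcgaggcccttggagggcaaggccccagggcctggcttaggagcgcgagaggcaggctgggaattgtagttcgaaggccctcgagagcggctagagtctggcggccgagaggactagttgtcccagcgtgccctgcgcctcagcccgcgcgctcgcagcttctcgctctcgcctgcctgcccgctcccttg
NAB2: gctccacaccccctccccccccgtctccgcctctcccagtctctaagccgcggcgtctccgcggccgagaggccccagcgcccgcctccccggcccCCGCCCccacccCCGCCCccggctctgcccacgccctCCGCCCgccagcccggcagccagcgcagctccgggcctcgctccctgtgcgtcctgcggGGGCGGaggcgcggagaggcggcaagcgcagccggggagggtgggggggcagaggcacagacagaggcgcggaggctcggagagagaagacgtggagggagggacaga
LRP1: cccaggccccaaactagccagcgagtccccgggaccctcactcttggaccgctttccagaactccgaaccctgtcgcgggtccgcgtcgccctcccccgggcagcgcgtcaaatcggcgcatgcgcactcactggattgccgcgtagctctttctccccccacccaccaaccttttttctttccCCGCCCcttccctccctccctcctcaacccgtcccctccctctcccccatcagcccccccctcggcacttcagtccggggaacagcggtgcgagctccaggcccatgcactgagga
No motif of the 4 was found in the RPS26 and PA2G4 windows. NAB2 and LRP1 both carry GGGCGG, and their values in the HPV- clone had opposite signs.

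In the HPV- resistant clone, 31 of the 33 tested members were lower than in HPV- parental cells and 2 were higher. Their median log2 fold change was -0.95, against 0.04 for all genes tested, with quartiles of -1.39 and -0.52. Called here means that edgeR gave an adjusted p below 0.05 together with a difference of more than 1 on the log2 scale, and by this rule 16 members were called lower and 0 higher. Of all genes tested, 5.22% were called lower and 6.06% higher by the same criteria, and since this contrast chose the members nothing is read from the difference. By adjusted p alone, 21 members were lower and 1, LRP1, was higher, where 14.1% and 12.8% of all genes passed. Both resistant libraries were below both parental libraries for 28 members (28.5% of all genes), above them for 1 (32.7%) and overlapped for 4.

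Together the members took 0.440% ± 0.0150 of the counts in HPV- resistant cells, against 0.941% ± 0.0761 in HPV- parental cells (SD, n = 2 each). The shares were 0.855% ± 0.00232 in HPV+ resistant cells and 0.990% ± 0.0192 in HPV+ parental cells (SD, n = 2 each). Without the 5 members with the most counts (RPL41, ATP5F1B, MYL6, NACA and PTGES3) the shares were 0.181% for HPV- resistant, 0.360% for HPV- parental, 0.348% for HPV+ resistant and 0.363% for HPV+ parental cells. The HPV- clone thus kept the lowest share without those 5 genes. In bulk RNA, fewer cells with a transcript and less of it per cell cannot be told apart.

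**Figure D1:**
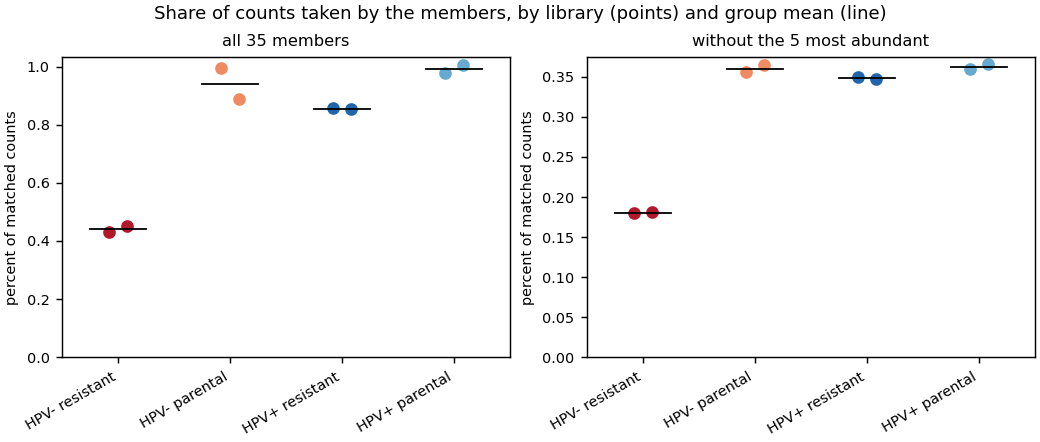
Percent of matched counts taken by the 35 members (left) and by the members without the 5 that had the most counts (right), for each library (points) with the mean of its group (line). Both HPV- resistant libraries lie below the other 6 libraries in both panels.

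Among the 4 groups, 28 members had their lowest mean in HPV- resistant cells. For 23 members both HPV- resistant libraries were below all 6 other libraries, a pattern that 12.4% of all genes tested showed.

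**Figure D2:**
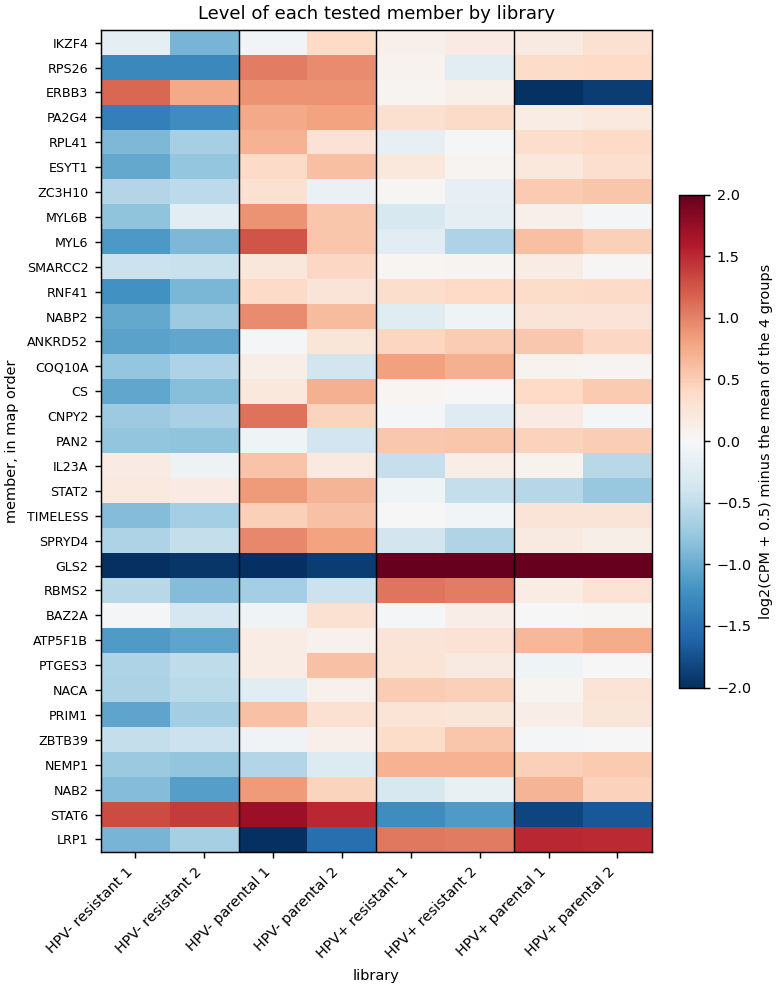
Level of each of the 33 tested members in each library, as log2(CPM + 0.5) minus the mean of the 4 groups, in map order from IKZF4 (top) to LRP1 (bottom). Colours end at -2 and 2, and the blue columns of the HPV- resistant libraries break at ERBB3, STAT2, STAT6 and a few others.

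Of all tested members, RPS26 and PA2G4 had the lowest log2 fold changes in the HPV- line. RPS26, a protein of the small ribosomal subunit, had 79.2 and 78.7 CPM in HPV- resistant cells, against 393 and 372 CPM in HPV- parental cells (log2 fold change -2.28 ± 0.15, SE). PA2G4, a nucleolar regulator of growth and ribosome assembly that binds ERBB3, had 142 and 155 CPM in HPV- resistant cells, against 618 and 643 CPM in HPV- parental cells (-2.09 ± 0.14). In both genes the resistant libraries lay close together and far below the parental ones. RPL41, a very small protein of the large subunit, had 940 and 1108 CPM in HPV- resistant cells, against 2845 and 2148 CPM in HPV- parental cells (-1.29 ± 0.18). RPS26, RPL41 and NACA have near-identical copies elsewhere in the genome among which reads can be split, so their levels are uncertain. NACA, a subunit of the complex that meets new proteins at the ribosome, was only slightly lower, with 358 and 378 CPM in HPV- resistant cells and 470 and 587 CPM in HPV- parental cells (-0.52 ± 0.16).

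The myosin light chains lie next to each other and were both lower. MYL6, the non-muscle essential light chain, had 377 and 450 CPM in HPV- resistant cells, against 1991 and 1223 CPM in HPV- parental cells (-1.96 ± 0.24). MYL6B, its close relative, had 33.4 and 50.3 CPM in HPV- resistant cells, against 110 and 86.8 CPM in HPV- parental cells (-1.23 ± 0.20). The parental libraries of MYL6 differed from each other more than those of most members.

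NABP2, PRIM1 and TIMELESS, which act on single-strand DNA or at the replication fork, were each called lower. NABP2, the single-strand DNA binding subunit of the SOSS complex, had 32.6 and 40.2 CPM in HPV- resistant cells, against 130 and 104 CPM in HPV- parental cells (-1.69 ± 0.17). PRIM1, the catalytic subunit of primase, had 20.2 and 26.0 CPM in HPV- resistant cells, against 63.9 and 52.6 CPM in HPV- parental cells (-1.33 ± 0.17). TIMELESS, which protects stalled replication forks with its partner TIPIN, had 103 and 118 CPM in HPV- resistant cells, against 264 and 285 CPM in HPV- parental cells (-1.31 ± 0.14). For these 3 genes the groups did not overlap.

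Of 4 members with metabolic roles in mitochondria, CS and ATP5F1B were called lower and COQ10A and GLS2 were not. CS, the citrate synthase that opens the citrate cycle, had 131 and 150 CPM in HPV- resistant cells, against 311 and 442 CPM in HPV- parental cells (-1.42 ± 0.18). ATP5F1B, the catalytic beta subunit of ATP synthase, had 476 and 500.3 CPM in HPV- resistant cells, against 1162 and 1110 CPM in HPV- parental cells (-1.22 ± 0.14). COQ10A, which binds coenzyme Q, was at 3.17 and 3.59 CPM in HPV- resistant cells and at 6.30 and 4.37 CPM in HPV- parental cells. GLS2, the liver-type glutaminase, was near its floor in this line, at 0.957 and 1.55 CPM in HPV- resistant cells and at 1.34 and 1.62 CPM in HPV- parental cells, and the libraries overlapped.

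The remaining members called lower were CNPY2 (-1.496), an endoplasmic reticulum protein, SPRYD4 (-1.44), RNF41 (-1.39), a ubiquitin ligase that acts on ERBB3, ESYT1 (-1.38), a tether between endoplasmic reticulum and plasma membrane, ANKRD52 (-1.17), a regulatory subunit of a protein phosphatase, and NAB2 (-1.65). NAB2, a corepressor of early growth response factors, had 52.4 and 44.9 CPM in HPV- resistant cells, against 174 and 131 CPM in HPV- parental cells. It was the sole member called lower in the far part of the block. PTGES3, an HSP90 cochaperone, was at -0.95, SMARCC2, a core subunit of BAF chromatin remodelers, at -0.76 and IKZF4, a zinc finger repressor, at -0.73. Other members below 0 with no call were ZC3H10 (-0.70), PAN2 (-0.57), the catalytic subunit of a deadenylase, IL23A (-0.52), a cytokine subunit near its floor at 0.415 to 1.496 CPM in all libraries, ZBTB39 (-0.48), NEMP1 (-0.35), a protein of the inner nuclear membrane, BAZ2A (-0.31), a nucleolar remodeling subunit, and RBMS2 (-0.17), an RNA-binding protein.

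STAT2, STAT6, ERBB3 and LRP1, which carry or receive signals, were not called in either direction. STAT2, which carries type I interferon signals, had 141 and 138 CPM in HPV- resistant cells, against 222 and 197 CPM in HPV- parental cells (-0.58 ± 0.16). STAT6, which carries interleukin-4 and interleukin-13 signals, had 144 and 153 CPM in HPV- resistant cells, against 190 and 165 CPM in HPV- parental cells (-0.26 ± 0.14). ERBB3, the neuregulin receptor, had 51.0 and 38.7 CPM in HPV- resistant cells and 42.9 and 43.0 CPM in HPV- parental cells, with overlapping libraries (0.06 ± 0.16). LRP1, a large endocytic receptor, had the opposite sign, with 94.5 and 113 CPM in HPV- resistant cells against 45.03 and 63.1 CPM in HPV- parental cells (0.94 ± 0.18).

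**Figure D3:**
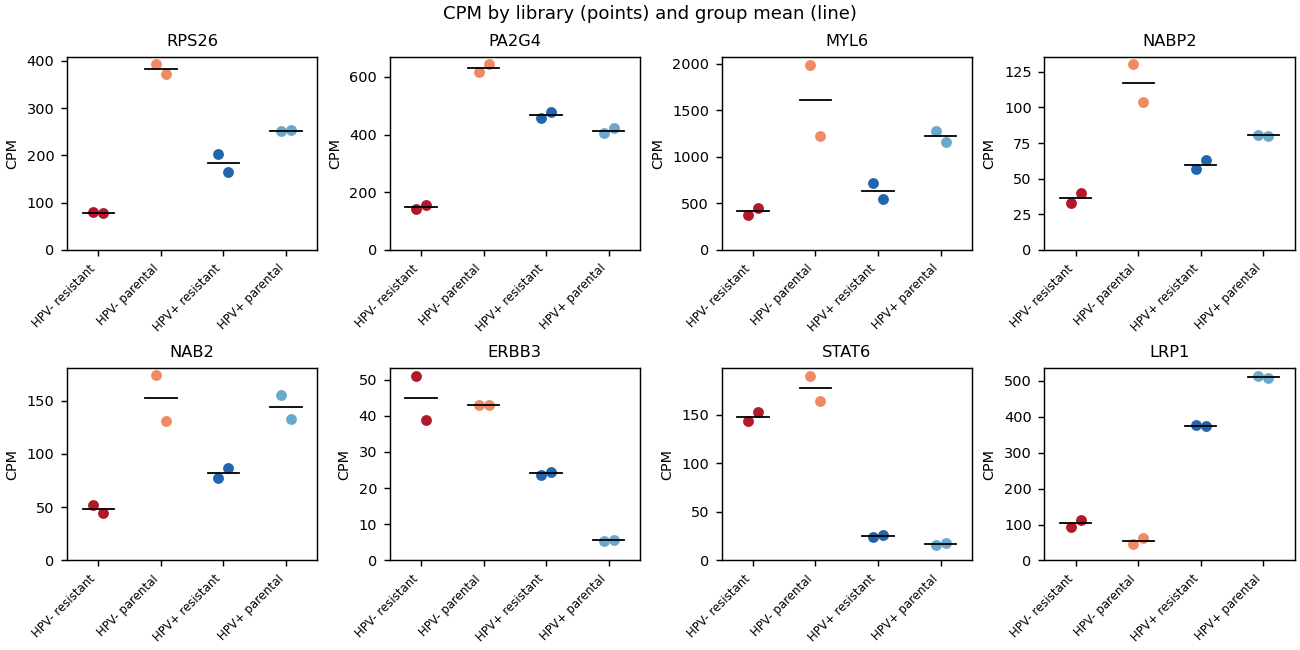
CPM of 8 members in each library (points) with the mean of each group (line), each panel with its own axis from 0. RPS26, PA2G4, MYL6, NABP2 and NAB2 are lowest in HPV- resistant cells, ERBB3 is lowest in HPV+ parental cells, STAT6 is low in both HPV+ groups and LRP1 is lowest in HPV- parental cells.

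Across the 33 members the log2 fold change in the HPV- line correlated with transcript length at a Spearman rho of 0.47, against 0.21 across all genes tested. With mean log2 CPM, rho was -0.375 across the members, against -0.23 across all genes tested. At 100 CPM or more in HPV- parental cells, 12 of 18 members were called lower, against 4 of 15 members under that level. Of all genes tested, 9.49% at or above that level were called lower in the HPV- line, against 4.40% under it. Members share the same libraries, so these values are a description.

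In map order, the label of a single low block held for part of the stretch. The widest gap between neighbouring members, of 246462 bases, follows PRIM1. The 28 tested members before the gap had a median log2 fold change of -1.19 in the HPV- line, with 27 negative and 15 called lower. The 5 tested members after it (ZBTB39, NEMP1, NAB2, STAT6 and LRP1) had a median of -0.35, with 4 negative and 1 called lower. Within the first group, GLS2, RBMS2 and BAZ2A stood together near 0, at -0.25, -0.17 and -0.31. The stretch also holds 39 annotated genes that are not members, 11 of them protein coding. Of the 39, 5 were tested, with a median of -0.30 in the HPV- line, 4 negative and 1 called lower.

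Nor did the low values begin at IKZF4. The 20 tested genes before it had a median of -0.54 in the HPV- line, with 15 negative and 6 called lower. Of the 5 nearest, CDK2, the kinase of the G1 to S transition, was called lower (-1.42), whereas DGKA was at -0.72 and PMEL at -0.79. The last of them, RAB5B and SUOX, were at -0.31 and -0.28, just outside the block where IKZF4 was at -0.73. At the far end LRP1, at 0.94, lies inside the block, and NXPH4, at -1.01 and called lower, lies outside. The tested genes next to NXPH4 were SHMT2 (-0.71), NDUFA4L2 (-0.67) and STAC3 (-0.47), not called, with NDUFA4L2 and STAC3 near their floor. ENSG00000258830, which follows, had 0 counts in the HPV- line. The 20 tested genes after the block had a median of -0.11, with 12 negative and 2 called lower. Of the 77 boundaries between genes in and around the block, the strongest drop in the median of 10 genes on either side, of -0.71, came just after ITGA7, and the strongest climb, of 0.93, came between SPRYD4 and GLS2. The rest of the long arm was slightly low too, with a median of -0.29 over 559 genes, against 0.06 over 193 genes of the short arm.

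**Figure D4:**
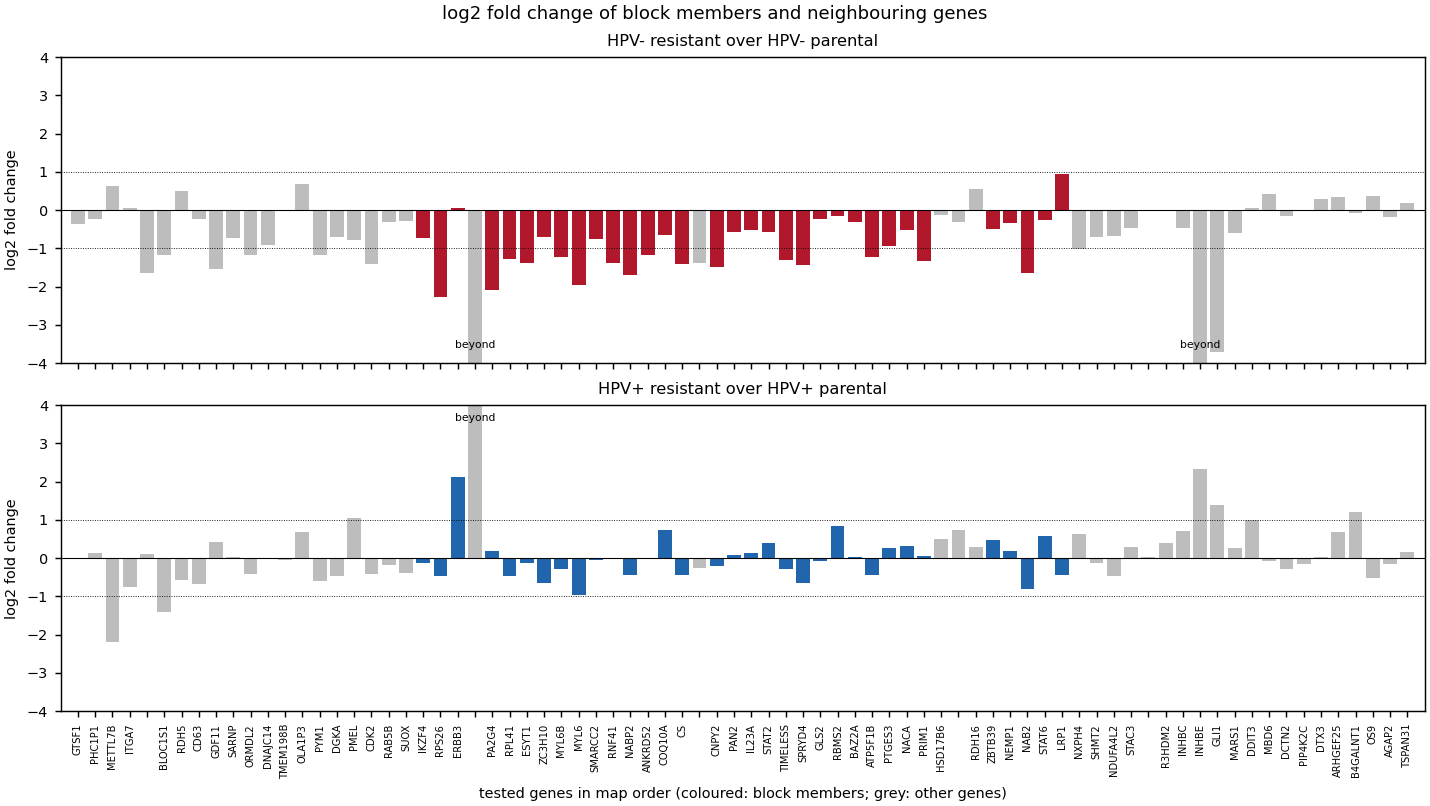
Log2 fold change of each tested member (coloured) and of the neighbouring tested genes (grey) in map order, for HPV- resistant over HPV- parental (top) and HPV+ resistant over HPV+ parental (bottom). Dotted lines mark -1 and 1, and bars beyond 4 are cut. In the HPV- line 31 of 33 members lie below 0, whereas in the HPV+ line 18 lie below and 15 above.

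Windows of 30 neighbouring tested genes were ranked across the genome. The window from IKZF4 to PRIM1 had a median of -1.22 in the HPV- line and ranked 1 of 14514 from the lowest. It tied with the window from CDK2 to ATP5F1B, which starts before the block and holds 25 members. The members were picked by such a rank, so it is a description. The lowest window without a member, from IFNE to AQP3 on chromosome 9, was at -0.90. The rank of the block window depended on the genes tested, the libraries and the width. The HPV+ libraries take no part in the HPV- contrast, but leaving 1 out changed which genes passed the filter. In those fits 15850 to 15955 genes were tested, against 15221 in the main fit, so the windows held other genes. Leaving out 1 library at a time put the window at ranks 1 to 9, and in 5 of these 8 fits a window without a member was lower than every window with one. Those 5 were the fits that left out 1 of the 4 HPV+ libraries, and the fit without HPV- resistant replicate 1, in which the S100 region of chromosome 1 was at -1.32 to -1.79. Among windows of 20 genes, the one with the most members, from PA2G4 to GLS2, was at rank 21 of 14744, with that region at -2.18. Among windows of 50 genes, the one from GDF11 to LRP1 was at rank 9 of 14054.

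The HPV+ line gives an independent look at the same genes. There the members had a median log2 fold change of -0.04, against 0.00 for all genes, with 18 negative and 15 positive. The edgeR test called 0 members lower and 1 higher at a log2 fold change beyond 1, where 4.6% of all genes were called lower and 3.4% higher. At an unadjusted edgeR p under 0.05, 10 members were lower (18.0% of all genes) and 6 higher (15.1%), and DESeq2 called 0 lower and 1 higher. Both resistant libraries were below both parental ones for 15 members (34.3% of all genes), above them for 11 (33.5%) and overlapped for 7. In 9 members both resistant libraries were below their parental ones in the HPV- line and above them in the HPV+ line (7.83% of all genes), and in 1, LRP1, the reverse held (8.76%), from which nothing is read because the HPV- contrast chose the members. The window of 30 genes ranked 4937 of 14514.

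ERBB3 was the sole member called higher in the HPV+ clone. It had 23.7 and 24.5 CPM in HPV+ resistant cells, against 5.42 and 5.70 CPM in HPV+ parental cells (log2 fold change 2.11 ± 0.18, SE, edgeR adjusted p = 0.000109). RBMS2 was at 102 and 98.0 CPM in HPV+ resistant cells and at 53.0 and 58.3 CPM in HPV+ parental cells (0.84 ± 0.15, edgeR adjusted p = 0.00529). STAT6 was at 24.1 and 26.1 CPM in HPV+ resistant cells and at 15.8 and 17.5 CPM in HPV+ parental cells (0.59 ± 0.15, edgeR adjusted p = 0.0197). All 3 rose by adjusted p, and their libraries did not overlap. Without HPV+ parental replicate 1, RBMS2 no longer passed (edgeR adjusted p = 0.0802). STAT6 no longer passed without any 1 of the 4 HPV+ libraries (edgeR adjusted p = 0.0723 to 0.198), whereas ERBB3 passed in all 17 alternative fits.

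By adjusted p alone, 4 members fell in the HPV+ clone, each by less than 2-fold (10.5% of all genes fell by that criterion and 7.65% rose). MYL6 had 715 and 545 CPM in HPV+ resistant cells, against 1274 and 1162 CPM in HPV+ parental cells (-0.95 ± 0.23, edgeR adjusted p = 0.0206). NAB2 had 77.1 and 86.9 CPM in HPV+ resistant cells, against 156 and 133 CPM in HPV+ parental cells (-0.82 ± 0.17, edgeR adjusted p = 0.0108). SPRYD4 was at -0.65 (edgeR adjusted p = 0.0163) and RPS26 at -0.45 (edgeR adjusted p = 0.0497). RPS26 lay at the threshold and lost it in 11 of 17 alternative fits, among them those that left out 1 of the 4 HPV+ or 1 of the 2 HPV- resistant libraries (edgeR adjusted p = 0.0591 to 0.326). MYL6 and SPRYD4 lost it when HPV+ parental replicate 1 or 2 was left out and without HPV+ resistant replicate 2 (edgeR adjusted p = 0.0709 to 0.143), SPRYD4 also with the transcript length offset (0.0623), and NAB2 without HPV+ parental replicate 1 or HPV+ resistant replicate 1 (0.0838 to 0.111). These 4 genes were also among the members called lower in the HPV- clone, from which nothing is read because the HPV- contrast chose the members. PA2G4, the second lowest in the HPV- clone, was at 456 and 478 CPM in HPV+ resistant cells and at 405 and 422 CPM in HPV+ parental cells (0.18 ± 0.13, edgeR adjusted p = 0.392).

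The parental lines themselves differed in a few members. GLS2 averaged 34.2 ± 1.84 CPM in HPV+ parental cells and 1.48 ± 0.20 CPM in HPV- parental cells, and LRP1 averaged 511 ± 3.35 CPM in HPV+ parental cells and 54.05 ± 12.8 CPM in HPV- parental cells (SD, n = 2 each). STAT6 averaged 16.6 ± 1.22 CPM in HPV+ parental cells and 177 ± 17.9 CPM in HPV- parental cells, and ERBB3 averaged 5.56 ± 0.20 CPM in HPV+ parental cells and 42.9 ± 0.05 CPM in HPV- parental cells. These 4 were the members more than 4-fold apart. Of the 33 members, 12 were higher in HPV+ parental cells and 21 lower.

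Genes known to work with the members were taken from 20 lists. Of 298 listed genes, 283 were tested. Their median log2 fold change was -0.23 in the HPV- line, where 23 were called lower (5.22% of all genes) and 6 higher (6.06%). In the HPV+ line their median was -0.01, with 3 called lower (4.6% of all genes) and 9 higher (3.4%). Within the DNA polymerase alpha-primase complex, POLA1, the polymerase subunit, fell in HPV- resistant cells (-1.02, edgeR adjusted p = 0.00658, or 0.0515 without HPV- resistant replicate 1), while PRIM2, the partner subunit of PRIM1, was at -0.26 (edgeR adjusted p = 0.213) and POLA2 at -0.15 (edgeR adjusted p = 0.518). Of 19 replisome genes, with a median of -0.53, 2 were called lower in HPV- resistant cells (5.22% of all genes). By edgeR adjusted p alone 11 were lower (14.1% of all genes). TIPIN fell to 11.4 CPM in HPV- resistant cells, against 27.0 CPM in HPV- parental cells (-1.24, edgeR adjusted p = 0.0016), and CDC45, a part of the replicative helicase, to 31.7 CPM in HPV- resistant cells, against 99.98 CPM in HPV- parental cells (-1.65, edgeR adjusted p = 0.000508). In the HPV+ line 0 replisome genes passed the edgeR adjusted p or were called by DESeq2. At an unadjusted edgeR p under 0.05, 3 were lower there (18.0% of all genes).

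Of 16 ATP synthase genes, 4 were called lower in HPV- resistant cells (5.22% of all genes), among them ATP5MC1, ATP5MG and ATP5MK, with a median of -0.79. In HPV+ resistant cells 0 were called (4.6% of all genes lower and 3.4% higher), with a median of -0.64. By adjusted p alone 12 of these genes fell in the HPV- line (14.1% of all genes) and 7 in the HPV+ line (10.5%). In the HPV+ line 13 were lower at an unadjusted edgeR p under 0.05 (18.0% of all genes) and DESeq2 called 1. Of 77 cytosolic ribosomal protein genes, RPL8, RPL24 and RPL30 were called lower in HPV- resistant cells (3 genes, against 5.22% of all genes), with a median of -0.20. In HPV+ resistant cells 0 were called lower (4.6% of all genes), with a median of 0.07. At an unadjusted edgeR p under 0.05, 3 were lower there (18.0% of all genes) and 12 higher (15.1%), and DESeq2 called 0. BTF3, which pairs with NACA, was at -0.28 (edgeR adjusted p = 0.169) and PAN3, which pairs with the deadenylase PAN2, at 0.05 (edgeR adjusted p = 0.86) in the HPV- line. Of 16 genes of glutaminolysis and coenzyme Q, with a median of -0.06, 2 were called lower (5.22% of all genes) and 0 higher (6.06%) in the HPV- line. The 2 called lower were COQ3 (-1.47) and PDSS1 (-1.42), enzymes of coenzyme Q synthesis (edgeR adjusted p = 0.000773 and 0.000449).

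Of 22 genes of interferon-activated transcription, 5 were called lower (5.22% of all genes) and 1 higher (6.06%) in HPV- resistant cells. In HPV+ resistant cells 0 were called lower (4.6% of all genes) and 4 higher (3.4%). At an unadjusted edgeR p under 0.05, 0 were lower there (18.0% of all genes), and DESeq2 called 0 lower and 6 higher. ISG15, a ubiquitin-like interferon product, averaged 217 CPM in HPV- resistant and 639 CPM in HPV- parental cells (-1.56, edgeR adjusted p = 0.00619), and 126 CPM in HPV+ resistant and 55.7 CPM in HPV+ parental cells (1.18, edgeR adjusted p = 0.0275). The ISG15 call was lost without HPV- parental replicate 1 in the HPV- line (edgeR adjusted p = 0.0736), and in the HPV+ line without any 1 of the 4 HPV+ libraries or of the 2 HPV- parental libraries (0.0603 to 0.169) or with no low-count filter (0.0655). IRF1, an interferon regulatory factor, rose in HPV- resistant cells (1.30, edgeR adjusted p = 0.000253). NRG1, a ligand of ERBB3, fell in both clones, to 43.8 CPM in HPV- resistant cells, against 217 CPM in HPV- parental cells (-2.31, edgeR adjusted p = 1.3e-05), and to 22.5 CPM in HPV+ resistant cells, against 45.6 CPM in HPV+ parental cells (-1.02, edgeR adjusted p = 0.00129). APOE, a ligand of LRP1, rose in both clones (1.46 in the HPV- line, edgeR adjusted p = 0.000928, and 2.35 in the HPV+ line, edgeR adjusted p = 0.000668).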

How the data were processed

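RNA was sequenced from 8 libraries in 4 groups of 2. The authors prepared polyA libraries and quantified them with Salmon on GRCh38, with version and annotation not given in the sources used here. Per the file headers, the deposited files hold estimated counts per transcript with no scaling, and TPM, which the authors' Salmon run scales by transcript length and library total. Transcripts were matched to GENCODE release 44 by identifier (172550 of 187432, the rest holding 4.33 to 5.13% of the counts), and the estimated counts were summed per gene and rounded. Genes were tested with edgeR 4.0.16 (R 4.3.3, limma 3.58.1) on all 8 libraries, with 1 coefficient for each group, TMM scaling, default filtering, the robust quasi-likelihood test and Benjamini-Hochberg adjustment over 15221 genes. DESeq2 1.42.0 was an alternative. The edgeR script was checked on simulated data. CPM uses TMM-scaled library sizes. The members and lists were chosen with earlier results of these data known. Named genes are the members, the 5 nearest tested genes on each side, the markers, and genes at the edges of windows and steps. In the partner lists they are up to 3 per direction with the smallest p among those called, with fixed partners of members. TPM entered no result.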

Additional observations from a re-analysis of the deposited data

Results flagged for a closer look

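For 10 members every library of the 2 resistant clones moved away from its parental cells in opposite directions in the 2 lines, and the difference between lines was not tested for them because the HPV- contrast chose the members. Of these members 9 were below in the HPV- line and above in the HPV+ line, as were 7.83% of all genes tested, and 1 showed the reverse, as did 8.76%. PA2G4 was at -2.09 in the HPV- line and 0.18 in the HPV+ line on the log2 scale, PTGES3 at -0.95 in the HPV- line and 0.27 in the HPV+ line, COQ10A at -0.65 in the HPV- line and 0.74 in the HPV+ line, and STAT2 at -0.58 in the HPV- line and 0.40 in the HPV+ line. PAN2 was at -0.57 in the HPV- line and 0.07 in the HPV+ line, NACA at -0.52 in the HPV- line and 0.33 in the HPV+ line, ZBTB39 at -0.48 in the HPV- line and 0.49 in the HPV+ line, and NEMP1 at -0.35 in the HPV- line and 0.20 in the HPV+ line. STAT6 was at -0.26 in the HPV- line and 0.59 in the HPV+ line, and LRP1 at 0.94 in the HPV- line and -0.45 in the HPV+ line.

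Apart from fixed partners such as TIPIN, the named partner genes were picked by a small p among genes called in a comparison. The difference between lines is built from the same comparisons, so this choice favours passing a test of it. The values are therefore given as a description. Named partners that did not pass are left out, so the values do not show how common such a difference was. The change in the HPV+ line minus that in the HPV- line passed the edgeR interaction test, adjusted by Benjamini-Hochberg over all genes, in the following cases. At the replication fork the difference was 1.55 for TIPIN (edgeR adjusted p = 0.00401), 1.54 for CDC45 (0.00515) and 1.54 for POLA1 (0.00662). For interferon genes it was 2.74 for ISG15 (edgeR adjusted p = 0.00343), 3.28 for MX1 (0.000312), 2.003 for OAS1 (0.00269), 1.498 for USP18 (0.006) and -1.07 for IRF1 (0.00568). For receptor signaling it was 1.29 for NRG1 (edgeR adjusted p = 0.00179), 1.66 for ERRFI1 (0.00277) and -1.31 for IL13RA1 (0.00705). For LRP1 ligands it was 3.55 for PLAUR (edgeR adjusted p = 0.000112) and -2.82 for CCN2 (0.00444). It was 4.19 for ATF3 (edgeR adjusted p = 5.56e-05), 1.02 for RPL24 (0.0102), 1.29 for COQ3 (0.0106), 1.44 for PDSS1 (0.00292) and -1.36 for OGDH (0.00108).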

How the results depend on the processing

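DESeq2, other scaling factors, filters and a length offset gave 16 members called lower in the HPV- line. With upper-quartile factors 1 member was also called higher, against 0 in the main fit. Whether a member was called higher in the HPV- line also varied among the fits without 1 library. The members' median there was -1.06 with a filter of 5 CPM in 2 libraries, -0.81 with the trend in GC content, length and level taken off, and -1.06 to -0.95 without 1 library. Without a minimum fold change, 4081 genes were called in the HPV- line and 2759 in the HPV+ line, with 7 members in the HPV+ line. In the HPV+ line, the length offset called 2 members, and leaving out 1 library called 1 to 2 members and 566 to 1267 genes, fewest without HPV+ parental replicate 1 and with 809 without HPV+ parental replicate 2. The window from IKZF4 to PRIM1 ranked 1 to 9 in the HPV- line and 4226 to 5465 in the HPV+ line without 1 library. The window with the most members ranked 21 in the HPV- line and 2986 in the HPV+ line among windows of 20 genes (PA2G4 to GLS2), and 9 in the HPV- line among windows of 50 genes (GDF11 to LRP1). For single members in the HPV+ line, 502 values stayed on their side of the adjusted p threshold, 25 lost it and 33 gained it, and no member reversed past it. Fits that leave a group with 1 library assume that it varies like the other groups. The cause of these changes was not tested. Upper-quartile factors raised the median of all genes in the HPV- line to 0.12 and the share of higher among called genes to 62.3%, against 53.7%, and without HPV- parental replicate 2 the calls there were 790 higher and 1114 lower (41.5% higher).

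With the replicate number as a block, 1616 genes were called in the HPV- line, 16 of them members, and 1123 in the HPV+ line, 1 of them a member. The numbers share no stated origin, and the deviations of same-numbered libraries correlated at -0.07 and -0.02. With 2 libraries a group, differences of members with few counts were not resolved.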
